A study of Arapaima gigas with 24 samples.

Results

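Among the 22016 gene models counted in gonad and brain of *Arapaima gigas* (pirarucu), 159 had their highest level in 1 of the 3 ovaries and stood apart there from every other sample. They were chosen by measured values. Both libraries of a sample were added first, and the level was taken as log2(CPM + 0.5) minus the sample's median over gene models, where CPM is the count scaled to the total of the sample. The 220 gene models of highest mean CPM were left out, which left 21796. A gene model was then a member if its highest level among the 12 samples was in an ovary, if that level was at least 1 log2 unit above each of the 11 others, and if at least 1 of the other ovaries lay below the highest testis. Of the 159 members, 68 peaked in ovary 1, 48 in ovary 2 and 43 in ovary 3. Peak heights, margins and the difference between the peak ovary and other samples are therefore descriptions of the choice and carry no test.

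The fish, 3 females and 3 males from a fish farm, measured 100 to 120 cm, were 4 years old or more and were in their reproductive season, with no treatment or genotype named. Each fish gave a brain sample and a gonad sample, so that the 4 groups (ovary, testis, brain of females, brain of males) had n = 3 fish each. Poly(A) RNA was sequenced on a SOLiD instrument in 24 libraries, with mapping to a related species, the Asian arowana (*Scleropages formosus*). Females had been recognised by primary oocytes in the ovary and males by spermatozoa in the testis, and the labels give no stage of the ovary beyond that.

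An ovary of a bony fish is a mixture of oocytes at several stages, the follicle cells around them, connective tissue, vessels and blood. Oocytes store large amounts of maternal transcripts, and the stages present in a piece of ovary change with the reproductive cycle and with where the piece is taken. The identifiers of the gene models are not paired here with gene names, so no member has a symbol, a function, a genome position or a sequence, and the label ovary could not be checked against oocyte or follicle markers. In such bulk samples more cells of a type and more RNA per cell cannot be told apart. Members are named below by the ovary they peaked in and by their rank in it by margin, the distance in log2 units between the peak and the second-highest sample.

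Summed totals ran from 5689872 to 13142667 counts per sample, with ovary 1 at 6601933, ovary 2 at 9532066 and ovary 3 at 11646782. TMM factors, which correct for the composition of a library, ran from 0.827 in the brain of female 2 to 1.18 in the brain of male 2. The deviations of brain and gonad from their group means, across gene models, correlated at r = 0.31 in female 2 and between -0.14 and 0.05 in the 5 other fish; gene models are not independent replicates. At the same margin of 1 log2 unit, 76 gene models stood above all other samples in the brain of female 2, against 3 to 20 in each of the 5 other brains and 5 to 14 in each testis.

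Most members exceeded the next sample by a few-fold and a few by far more. The median margin was 1.28 log2 units, a 2.43-fold difference from the next sample, and the quartiles were 1.13 and 1.68. The largest was 4.47 log2 units, or 22.2-fold. Margins reached 1.5 log2 units in 56 members, 2 in 19 and 3 in 5, and 56 members lay under 1.2. Against the median of the 11 other samples the peak was 3.86-fold higher at the median member and 35.6-fold at most. Median margins of the ovaries were close, at 1.35, 1.26 and 1.23 for ovaries 1, 2 and 3. The last member inside the threshold, in ovary 1, had a margin of 1.001 log2 units with testis 2 next, and the first gene model outside it, in ovary 2, had 0.99 with ovary 1 next. Within 0.1 log2 units of the threshold lay 33 members and 34 other gene models.

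Members were well-counted gene models. CPM in the peak ovary ran from 10.5 to 1892 with a median of 134, and the counts behind them from 69 to 14256 with a median of 1101. One member had fewer than 100 counts at its peak and 89 had at least 1000. The mean CPM over the 12 samples had a median of 43.7, against 24.8 over all gene models. That mean includes the chosen peak. The median CPM of the 11 other samples was 37.1 at the median member. The 68 members of ovary 1 held 1.85% of that ovary's counts (95% exact binomial interval 1.84 to 1.86, counting error only) and 0.310% to 0.450% in the 11 other samples. For the 48 members of ovary 2 the share was 0.875% (0.869 to 0.881) there and 0.173% to 0.274% elsewhere. For the 43 members of ovary 3 it was 1.095% (1.089 to 1.101) there and 0.250% to 0.322% elsewhere. The choice used these counts, so the shares describe it. The intervals leave out the spread between libraries and between fish.

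**Figure D1:**
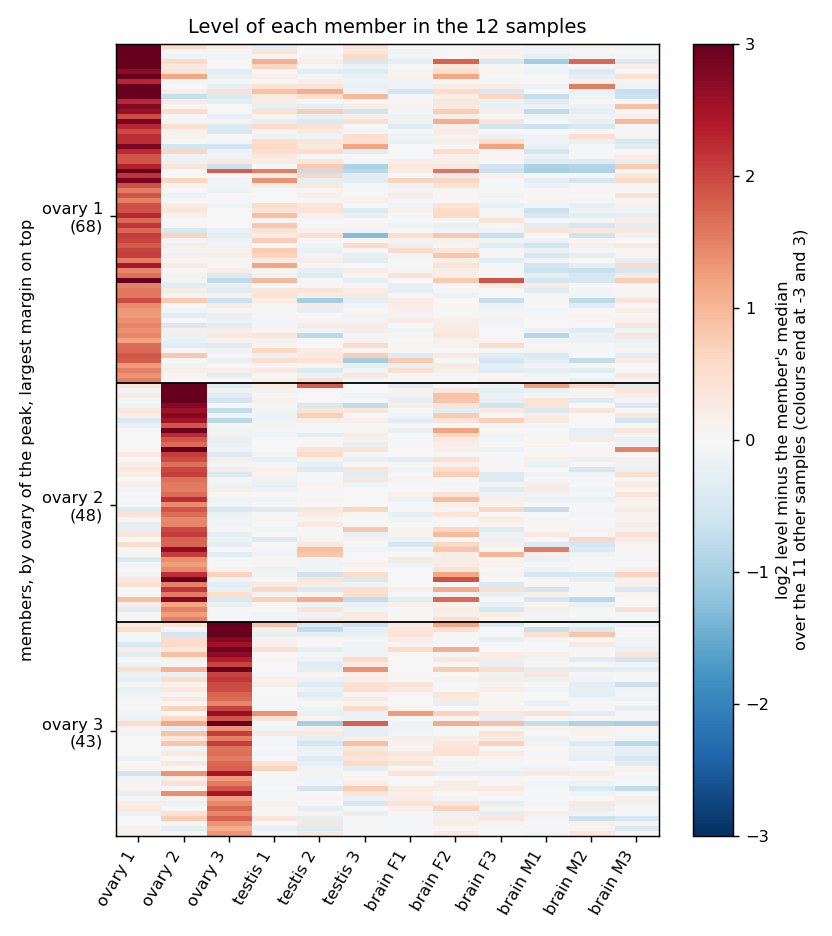
Level of each of the 159 members (rows, grouped by the ovary of the peak and ordered by margin) in the 12 samples (columns, F for females and M for males), as log2 difference from the member's median over the 11 other samples. The block of high values moves from ovary 1 (68 members) to ovary 2 (48) and ovary 3 (43) because the members were chosen so; outside these blocks, stripes in the brain of female 2 are the most frequent.

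Outside the peak most members had no raised sample, but as a set they were less even there than all gene models. In 134 of the 159 no other sample lay 1 log2 unit or more above the member's median of the 11 others, in 16 members 1 other sample did, and in 9 members several did. These 25 members are 15.7% of the set, and 2.19% of all gene models had such a sample among the 11 samples below their highest. The standard deviation over the 11 samples below the highest was 0.26 log2 units at the median member and 0.16 over all gene models. The raised sample was most often the brain of female 2, in 12 members, followed by ovary 2 and testis 1 with 5 each. Of the other ovaries, both lay below the highest testis in 111 members and 1 of them did in 48, and in 21 members both lay below every testis. The remaining ovaries differed from the testes by a median of -0.04 log2 units. The choice required at least 1 of the other ovaries to lie below the highest testis. These counts and this median therefore describe the choice.

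The member with the largest margin peaked in ovary 1. Its CPM was 370 in ovary 1, 15.0 in ovary 2 and 12.6 in ovary 3. It was 9.78, 14.2 and 14.7 in testes 1 to 3, 12.2, 9.80 and 10.9 in the brains of females 1 to 3, and 12.6, 15.1 and 11.8 in the brains of males 1 to 3. Ovary 1 stood alone, and the other ovaries, the testes and the brains overlapped each other. The 2 libraries of ovary 1 were far apart, with 107 CPM in run 1 and 611 in run 2, and the margin was 2.72 log2 units in run 1 and 5.06 in run 2.

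The second member of ovary 1 had 1449 CPM in ovary 1, 87.9 in ovary 2 and 93.8 in ovary 3. Testes had 133, 123 and 125 CPM, brains of females 98.8, 89.0 and 112, and brains of males 117, 129 and 113. Here the other ovaries lay below all testes, and the nearest sample, testis 1, was 11.6-fold below the peak after centring. The third member of ovary 1 had the same shape at a like level, with 1208 CPM in ovary 1, 84.8 and 91.5 in the other ovaries, 116, 129 and 155 in the testes and 90.9 to 120 in the brains.

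The fourth member of ovary 1 had the highest CPM of all members, 1892 in ovary 1, against 109 in ovary 2 and 77.8 in ovary 3. It was uneven elsewhere, with 71.4, 243 and 59.6 CPM in the brains of females, 47.5, 323 and 68.9 in the brains of males and 177, 113 and 57.5 in the testes. The brains of female 2 and male 2 and testis 1 were raised, each in a different group, and groups overlapped. The fifth member was flat outside its peak of 387 CPM, with 37.4 to 70.8 CPM in the 11 others.

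In ovary 2 the first member had 319 CPM, against 12 in ovary 1 and 6.87 in ovary 3. Its testes had 11.5, 41.9 and 9.33 CPM, its brains of females 7.99, 7.84 and 8.61, and its brains of males 28.0, 18.2 and 8.63. Testis 2 and the brain of male 1 were raised, while the brains of females were the most even group. This member had the greatest height over the median of the other samples, 35.6-fold, and both libraries of ovary 2 were high, with 366 and 268 CPM.

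The second member of ovary 2 had 149 CPM there, 11.7 in ovary 1 and 11.2 in ovary 3, with 12.6 to 15.2 in the testes and 10.5 to 19.3 in the brains. Its libraries in ovary 2 held 70.6 CPM in run 1 and 232 in run 2. No other sample was raised. The third member had 714 CPM in ovary 2, 88.3 and 55.7 in the other ovaries, 66.8 to 90.7 in the testes and 66.1 to 119 in the brains, the highest of which was the brain of the same fish. The fourth and the fifth had peaks of 177 and 386 CPM, against 11.8 to 30.2 and 36.4 to 99.9 CPM in the other samples.

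In ovary 3 the first member had 1224 CPM on 14256 counts, the most counts of any member at its peak. Ovaries 1 and 2 had 63.9 and 64.4 CPM, testes 104, 48.4 and 34.5, brains of females 71.5, 106 and 41.3, and brains of males 66.8, 58.8 and 56.7. The brain of female 2 and testis 1 were next, 10.5-fold or more below the peak after centring. Both libraries carried it, with 1410 and 1014 CPM.

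The second member of ovary 3 had 511 CPM there, 97.9 and 65.8 in ovaries 1 and 2, 49.0 to 79.9 in the testes and 52.2 to 96.4 in the brains. The third had 106 CPM there, 12.7 and 7.87 in the other ovaries, at most 13.2 in the testes and 11.7 to 28.9 in the brains. For the fifth, the lowest of the leading 5, the peak was 43.4 CPM and the other samples had 5.15 to 11.2. The fourth had 210 CPM at its peak and 26.7 to 43.0 elsewhere.

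**Figure D2:**
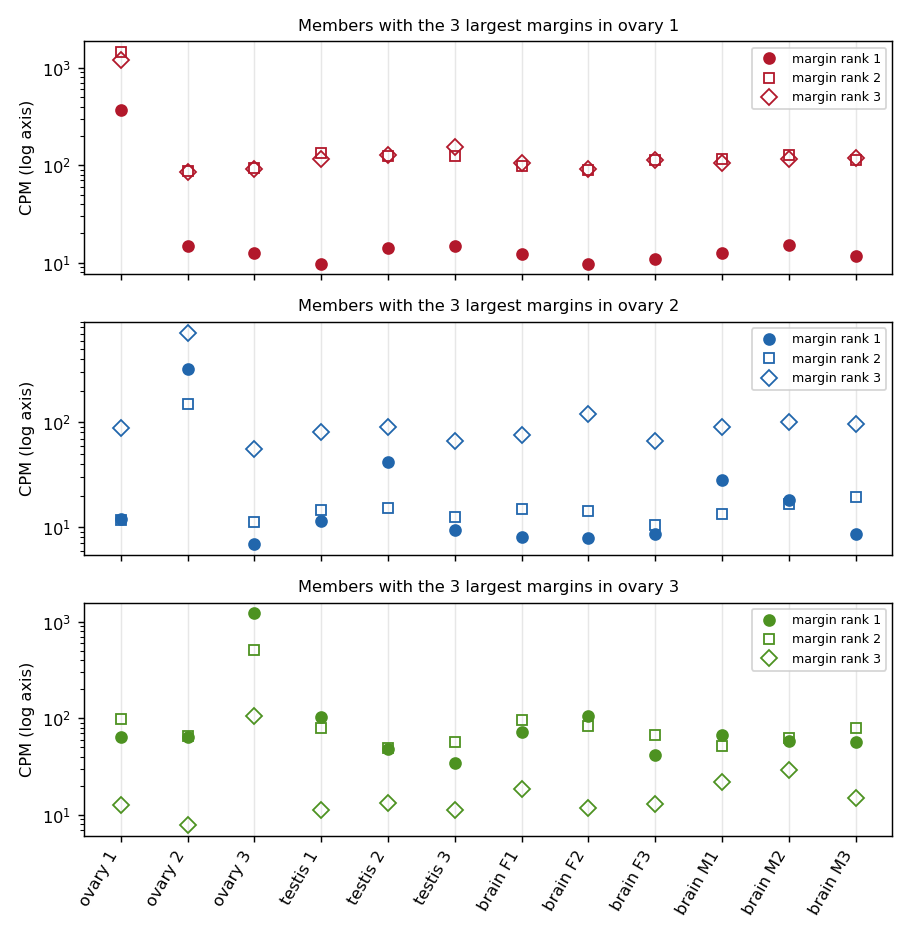
CPM (log axis) of the 3 members with the largest margin in each ovary, in the 12 samples; each point is 1 fish and tissue, 2 libraries added, with no error bar. Each panel has a single high sample, such as 370, 1449 and 1208 CPM in ovary 1, and the 11 others lie together below it, spread widest in the first member of ovary 2, from 6.87 to 41.9 CPM.

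Some members had a second high sample well above the rest. The widest gap between the second sample and the median of the 10 remaining was in the member of rank 26 in ovary 1, at 2.13 log2 units. It had 629 CPM in ovary 1, 218 in ovary 3, 196 in testis 1 and 172 in the brain of female 2, against 36.0 to 82.3 in the 8 others. High samples were thus found in ovary, testis and brain. After it came the member of rank 48 in ovary 1, with 346 CPM in ovary 1, 154 in the brain of female 3 and 22.8 to 83.1 elsewhere. The last of these 3 was the member of rank 40 in ovary 2, with 321 CPM in ovary 2, 151 in the brain of the same fish and 32.6 to 70.5 elsewhere.

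The peaks were present in both libraries of the ovary, but their height varied more between the libraries than is usual in the same ovary. In 158 of 159 members the same ovary was highest in both runs, and the margin reached 1 log2 unit in both runs in 101 members, in 1 run in 57 and in neither in 1. Since the summed counts chose the members, these counts describe the choice. The exception was the member of rank 49 in ovary 1, with 14.6 CPM in run 1 and 58.3 in run 2, whose run 1 margin was -0.01. The margins of the runs differed by a median of 0.30 log2 units and by at most 2.35.

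The log2 ratio of the runs in the peak ovary had a median absolute value of 0.32, 0.42 and 0.43 for the members of ovaries 1, 2 and 3. For other gene models of like level in the same ovary it was 0.16, 0.16 and 0.10. A ratio beyond 0.5 log2 units was found in 25 of 68 members of ovary 1 (36.8%), where 8.44% of 2417 gene models of like level passed it. It was found in 20 of 48 members of ovary 2 (41.7%) against 6.25% of 3553, and in 17 of 43 members of ovary 3 (39.5%) against 3.69% of 2761. In all 3 ovaries the libraries of one fish therefore differed more for members than for other gene models of like level. The choice used the sum of both libraries, so these ratios are not independent of it. In ovary 3 the member of rank 10 had 478 CPM in run 1 and 96.9 in run 2, with margins of 2.27 and 0.20.

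**Figure D3:**
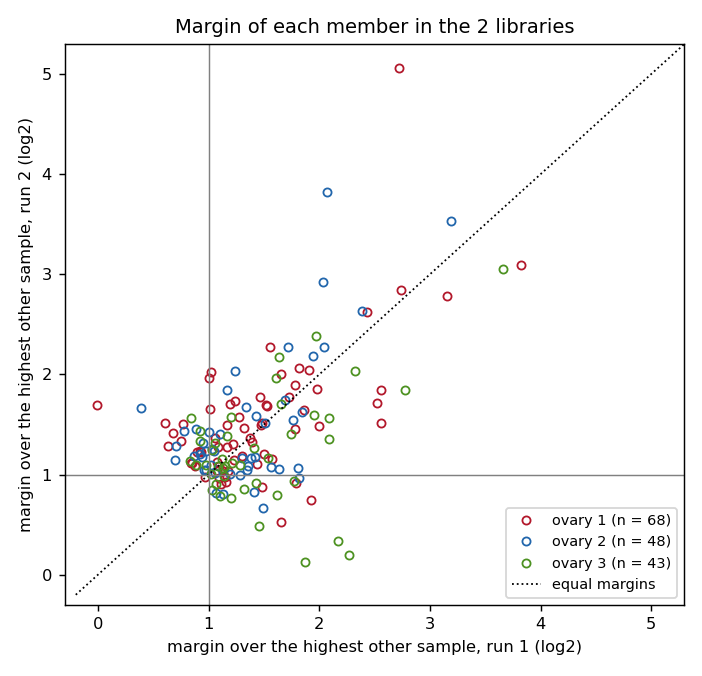
Margin of each member over its highest other sample in run 1 (x axis) and run 2 (y axis), in log2 units; each point is a member, coloured by ovary, grey lines mark 1 log2 unit and the dotted line equal margins. The 101 members in the upper right passed the margin in both runs, and the point at 2.72 and 5.06 is the member with the largest margin.

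The second-highest sample was a testis in 59 members, a brain of a female in 59, another ovary in 25 and a brain of a male in 16. A member has fewer other ovaries than samples of each other kind. The rule also places an other ovary below the highest testis. These counts are therefore partly set by the choice, and no share over all gene models is given for them. Counts of the second-highest sample are given by ovary of the peak, and differences between the ovaries were not tested. In ovary 1 it was a testis in 34 of 68 members (testis 1 in 16, testis 2 in 10, testis 3 in 8) and another ovary in 5. Among the members of ovary 3 the second-highest sample was another ovary in 17 of 43, ovary 2 in 15 of these. It was a testis in 15 (testis 1 in 2, testis 2 in 2, testis 3 in 11). In ovary 2 it was a brain of a female in 28 of 48 members, and in 23 of these the brain of the same fish. A testis was second in 10 members of ovary 2 (testis 1 in 1, testis 2 in 4, testis 3 in 5).

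**Figure D4:**
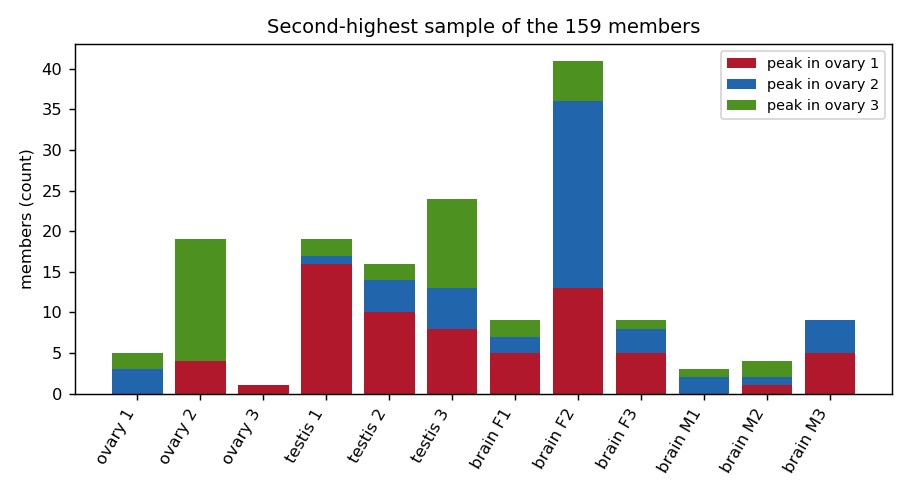
Number of members (y axis) whose second-highest sample was each of the 12 samples (x axis), with colours for the ovary of the peak. The brain of female 2 has the tallest bar, 41 members, of which 23 peaked in ovary 2, the ovary of that fish; testis 3 follows with 24.

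The brain of the peak fish was second in 5 of 68 members of ovary 1, 23 of 48 of ovary 2 and 1 of 43 of ovary 3. Among non-members whose highest sample was the same ovary, the brain of the same fish was second in 4.45% for ovary 1, 24.2% for ovary 2 and 5.48% for ovary 3. Members and non-members of ovary 2 both had a larger share than those of the other ovaries, and the share of the members was the larger.

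Compared among the brains alone, the brain of female 2 was the highest of the 6 in 26 of 48 members of ovary 2 (54.2%), 26 of 68 of ovary 1 (38.2%) and 13 of 43 of ovary 3 (30.2%). Over all gene models it was the highest brain in 21.8%, and in gene models of like brain level as the members of ovaries 1, 2 and 3 in 23.9%, 21.8% and 24.8%. It lay above the median of the 5 other brains by a median of 0.29, 0.32 and 0.15 log2 units in the members of ovaries 1, 2 and 3, against -0.04 over all gene models. The shares lay above the background for the members of ovaries 1 and 2, while that for ovary 3 was near it. In the members of ovary 3 the brain of female 1 stood as high, with a median of 0.14 log2 units over the other brains and 33 of 43 members above their median, against 29 for the brain of female 2. The brain of female 1 was the highest in 11 of 68 members of ovary 1 (16.2%), 4 of 48 of ovary 2 and 10 of 43 of ovary 3, against 14.4% of all gene models. The brain of female 3 was the highest in 8 of 43 members of ovary 3 (18.6%), 11 of 68 of ovary 1 and 5 of 48 of ovary 2, against 15.8%. For females 1 and 3 the share in members of their own ovary was thus near that over all gene models. The low TMM factor of the brain of female 2 and its 76 gene models at the same margin go with these counts, and their part was not tested.

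Members of ovary 2 with the most CPM show this. Rank 44 had 725 CPM in ovary 2 and 347 in the brain of female 2. Its other brains had 84.8 to 143 CPM, its other ovaries 221 and 85.6, and its testes 208, 315 and 71.4. The brain of female 2 was above every other brain and every testis. Rank 42 had 697 CPM in ovary 2 and 331 in the brain of female 2, with 142 to 252 in the other brains. In ovary 3 the member of rank 6, with 1158 CPM there, also had the brain of female 2 next, at 298 CPM against 160 to 262 in the other brains.

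The comparison of male with female brain was not used to choose members beyond the cap that each brain lay 1 log2 unit below the peak. Under TMM scaling the members lay lower in males at the median, while total-count scaling turned the sign. Their median log2 fold change was -0.15, against 0.01 over the 22015 gene models tested, and 119 of 159 (74.8%) were below 0, against 48.7% of all gene models and 53.1% of 10850 gene models of like brain level. By the quasi-likelihood test of edgeR no member and no other gene model passed an adjusted p of 0.05, a background of 0.0% called, and the smallest adjusted p of a member was 0.130. At an unadjusted p under 0.05, 29 members (18.2%) were lower in males, against a background of 11.1%, and 2 (1.26%) were higher, against 7.14%. DESeq2, with an adjusted p under 0.05, called 14 of the 133 members that had an adjusted p (10.5%), all lower in males, against 8.27% of all gene models, a share near the background.

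Of the 29 members lower in males at an unadjusted p under 0.05, 17 had their peak in ovary 3, 10 in ovary 1 and 2 in ovary 2. In either direction such a p by edgeR was found in 39.5% of the 43 members of ovary 3. For the 68 of ovary 1 and the 48 of ovary 2 it was 16.2% and 6.25%, against 18.2% of all gene models. In either direction only the share of ovary 3 lay above that background. Lower in males alone were 17 of 43 members of ovary 3, 10 of 68 of ovary 1 and 2 of 48 of ovary 2. For that direction the background was 2440 of 22015 gene models (11.1%). Only the members of ovary 3 lay well above it, and the share of ovary 1 was near it. Differences between the ovaries were not tested. Among the 29 the smallest p was in the member of rank 46 in ovary 1. Its brains had 46.0, 39.4 and 39.5 CPM in females and 31.0, 30.6 and 31.9 in males. The groups did not overlap, and the log2 fold change was -0.73 (edgeR, adjusted p = 0.130; DESeq2, adjusted p = 4.97e-09). In the member of rank 21 in ovary 3 the values were 101, 193 and 189 CPM in the brains of females and 75.5, 66.2 and 59.9 in those of males, a log2 fold change of -1.60 (edgeR, adjusted p = 0.142; DESeq2, adjusted p = 0.0011). The brain of female 1 was the lowest of the females and still above all males. Rank 10 in ovary 3, with 299 CPM at its peak, had 39.5, 54.9 and 55.01 CPM in the brains of females and 37.0, 36.0 and 34.9 in those of males, which all lay below the females. Rank 27 in ovary 3 had 29.2, 25.6 and 25.3 CPM in females and 25.2, 23.1 and 20.8 in males, with all females above all males (log2 fold change -0.52; edgeR, adjusted p = 0.142; DESeq2, adjusted p = 0.00071). Rank 24 in ovary 1 had 13.2, 10.3 and 10.7 CPM in females and 10.1, 9.95 and 10.3 in males, which is 12.7, 12.4 and 11.2 against 8.65, 8.42 and 9.14 after division by the TMM factors over the 12 samples. On that scale the groups did not overlap, and the log2 fold change was -0.49 (edgeR, adjusted p = 0.142).

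Both members that were higher in males at that p were low gene models. Rank 38 in ovary 1 had 5.10, 3.83 and 4.39 CPM in the brains of females and 7.74, 7.41 and 6.90 in those of males, a log2 fold change of 0.42 (edgeR, adjusted p = 0.152). Rank 32 in ovary 2 had 7.30, 6.63 and 6.68 CPM in females and 9.35, 14.8 and 10.5 in males, a log2 fold change of 0.44 (edgeR, adjusted p = 0.273). In rank 38 the sexes did not overlap, and in rank 32 the highest female and the lowest male met after division by the TMM factors, at 8.01 and 8.00.

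The sign of the median depended on scaling, which shifts members and all other gene models of a sample alike. With total-count scaling the median log2 fold change was 0.18 in members and 0.31 over all gene models. With upper-quartile scaling it was -0.05 and 0.10, and with RLE scaling -0.15 and 0.00. The median of the members minus that of all gene models was -0.16 with both TMM and RLE scaling. It was -0.12 with total-count and -0.15 with upper-quartile scaling. Below the median of all gene models lay 124 members with TMM or RLE, 122 with total-count and 123 with upper-quartile scaling. The unadjusted calls of edgeR at p under 0.05 moved with the scaling. Total-count scaling gave 27 members higher and 7 lower in males, against 8828 and 480 of all gene models. Upper-quartile scaling gave 8 and 18, against 3513 and 1456, and RLE scaling 1 and 30, against 1494 and 2509. Under TMM scaling, leaving out female 2 changed the count of members at that p from 31 to 27, of which 24 were lower in males. The count over all gene models changed from 4012 to 3157. Among the members, run 1 alone gave 30 lower and 2 higher and run 2 alone 28 lower and 1 higher. Over all gene models, in either direction, run 1 alone gave 3455 of 21967 and run 2 alone 3158 of 21947.

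**Figure D5:**
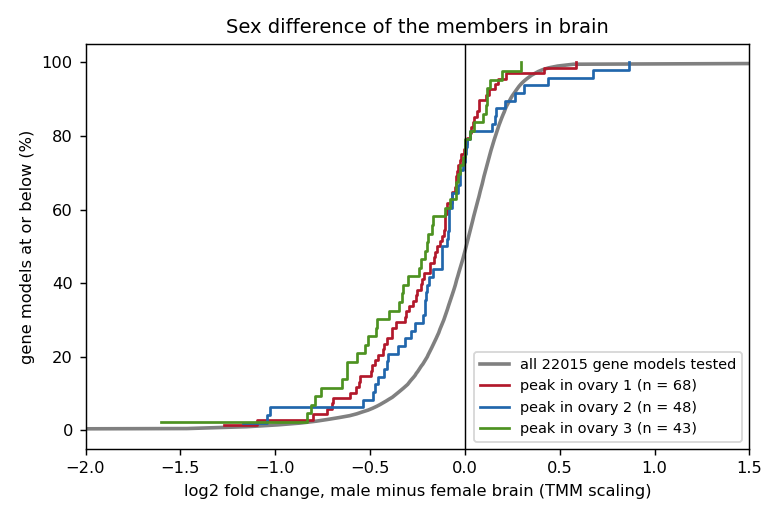
Cumulative share of gene models (y axis, %) at or below each log2 fold change of male against female brain (x axis, TMM scaling, limited to -2 to 1.5), for the members of each ovary and for all 22015 gene models tested; each step is a member. The curves of the members lie left of the grey curve for most of their length, with medians of -0.14, -0.11 and -0.20 for ovaries 1, 2 and 3 and 0.01 for all gene models; with total-count scaling the median of all members is 0.18 and that of all gene models 0.31.

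Testis and male brain are compared in fish that hold no peak, although the choice used the highest testis as a reference for the other ovaries. Under TMM scaling the median log2 fold change of the members was 0.11, against 0.01 over the 22015 gene models tested, and 113 of 159 were above 0, while total-count scaling turned the sign of both medians. By edgeR no gene model passed an adjusted p of 0.05 (0.0% called), and the smallest adjusted p of a member was 0.825. At an unadjusted p under 0.05, 18 members (11.3%) were higher in testis, against a background of 2.65% and 2.76% of gene models of like level, and 1 (0.629%) was lower, against 1.77%. With the fish as a block, 16 were higher and 4 lower. In either direction 725 of all gene models then had such a p, against 973 without the block. Of the 18 in the fit without the block, 15 had their peak in ovary 1, 1 in ovary 2 and 2 in ovary 3. In either direction such a p was found in 22.1% of the 68 members of ovary 1. For the 48 of ovary 2 and the 43 of ovary 3 it was 2.08% and 6.98%, against 4.42% of all gene models. The share of ovary 1 lay above that background, and that of ovary 3 was near it. In ovary 2 only 1 member had such a p, too few to place its share. The testes had a part in the choice, so these shares are not independent of it. Differences between the ovaries were not tested. The clause on the highest testis favours gene models high in a testis. The 19 gene models that had the margin in an ovary and were left out by the clause held 0 higher and 3 lower. The part of the clause in the count of members was not tested. DESeq2 at an adjusted p under 0.05 called 3 of the 130 members with an adjusted p (2.31%), all higher in testis and all with their peak in ovary 1, against 0.2% of all gene models.

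Rank 11 in ovary 1, one of these 3, had 195, 274 and 308 CPM in the testes and 116, 173 and 116 in the brains of males. The groups did not overlap, and the log2 fold change was 1.13 (edgeR, adjusted p = 0.825; DESeq2, adjusted p = 0.0044). Its peak was 1185 CPM in ovary 1, with 87.5 and 113 in the other ovaries, so that these lay below all testes. Rank 46 in ovary 1, described above for brain, had 43.5, 40.7 and 46.3 CPM in the testes, all above the 30.6 to 31.9 of the male brains, and 44.2 and 36.0 in ovaries 3 and 2. Its log2 fold change between testis and male brain was 0.67 (edgeR, adjusted p = 0.825; DESeq2, adjusted p = 0.0049).

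The smallest p by edgeR was in the member of rank 20 in ovary 1, with 11.5, 12 and 10.6 CPM in the testes and 8.50, 7.90 and 5.94 in the brains of males, a log2 fold change of 0.78 (edgeR, adjusted p = 0.825). The 1 member lower in testis, rank 3 in ovary 3, had 11.2, 13.2 and 11.1 CPM in the testes and 22.0, 28.9 and 15.1 in the brains of males, and its log2 fold change was -0.71 (edgeR, adjusted p = 0.825). In both the tissues did not overlap. Rank 24 in ovary 1 had 12.7, 16.2 and 10 CPM in the testes and 10.1, 9.95 and 10.3 in the brains of males, and rank 51 in ovary 1 had 19.7, 20.4 and 17.1 in the testes and 17.2, 16.8 and 16.3 in the brains of males. Divided by the TMM factors, rank 24 had 10.7 to 14.0 in the testes and 8.42 to 9.14 in the brains of males, and rank 51 had 17.6 to 19.7 and 14.2 to 14.7, so that the tissues did not overlap on that scale. Without male 1, 10 members were higher and 1 lower, and 337 of all gene models had such a p in either direction, against 973 with all fish. Without male 2 the counts were 18 higher and 4 lower, with 1690 over all gene models. Without male 3 they were 32 and 2, with 946 over all gene models. Total-count scaling turned the median of the members to -0.06, against -0.16 over all gene models.

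The comparisons of testis with ovary and of ovary with female brain hold the samples that chose the members, and nothing is read from them. In testis against ovary the median log2 fold change of the members was -0.88. By edgeR none passed an adjusted p of 0.05 (background 0.0%), 11 (6.92%) were lower in testis at an unadjusted p under 0.05 against 3.5% of all gene models, and 0 were higher against 2.33%. DESeq2 called 0 of the 110 members with an adjusted p, against 0.257% of all gene models. In ovary against female brain the median was 0.84. By edgeR none passed an adjusted p of 0.05 (background 0.0%), 16 (10.1%) were higher in ovary at an unadjusted p under 0.05 against 1.76%, and 0 were lower against 1.46%. With the fish as a block, since both tissues came from the same fish, 9 were higher. In either direction 656 of all gene models then had such a p, against 709 without the block. DESeq2 called 0 of 145 members with an adjusted p, against 0.0501%.

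The members found also depended on the fish included. Without female 1 the rule found 74 gene models, 68 of them members, and without females 2 and 3 it found 143 and 111, with 102 and 98 members among them. Leaving out a female removes her peaks, and it also leaves a single other ovary for the clause on the testis, while adding gene models that had been high in her samples. Without each male in turn the rule found 159 to 166. Run 1 alone gave 160 gene models with 122 members among them, and run 2 alone 161 with 125.

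Of 178 gene models with the margin in an ovary, 19 were not members since both other ovaries lay above the highest testis, 3 with their peak in ovary 1, 5 in ovary 2 and 11 in ovary 3. The same margin was passed by 31 gene models in a testis, 111 in a brain of a female and 29 in a brain of a male. At any margin 7102 gene models had their highest level in an ovary, 1821 in ovary 1, 1841 in ovary 2 and 3440 in ovary 3. Ovary 3 thus had the most gene models at its highest level and the fewest members, and ovary 1, with the lowest total of the ovaries, the most members. The order of ovaries 2 and 3 by members depended on the settings. Without the clause they had 53 and 54 gene models, and with total-count CPM 33 and 45.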

How the data were processed

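The deposited table holds whole-number counts of reads per gene model and library, not normalized, for 24 libraries, per the file header and values. The authors mapped reads to the *Scleropages formosus* genome, per the series design text, with Bowtie, per the submitters' processing notes. Not given in the sources used here are its version, the counting tool, build, annotation, use of strand and treatment of reads mapping to several places, so counts of gene models with near-identical or overlapping copies are uncertain, and levels compare samples more safely than gene models. The labels do not explain the prefix that tells the 2 libraries of a sample apart, called run 1 and run 2 here. They were summed (12 samples, n = 3 fish per group) and nothing says more of their origin.

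CPM are counts scaled to the summed total, without TMM. Differences were tested with edgeR 4.0.16 (quasi-likelihood, TMM, minimum count 10, minimum total 15) in R 4.3.3 on all gene models, with Benjamini-Hochberg adjustment over all of them, and with DESeq2 1.42.0 as alternative, where undefined adjusted p-values were left out. Both were tested on simulated brain counts without pairing. Their p-values measure the spread among the fish of a group. The main fits of the tissue comparisons leave out the pairing within fish, and fits with the fish as a block were run as alternative. Gene models of like level are non-members whose mean CPM over the compared samples, or CPM in the peak ovary, lies between the quartiles of the members. Per the labels, a number marks the brain and the gonad of 1 fish, so the samples of the tissue comparisons are paired. The correlation of deviations was -0.02, 0.31 and 0.04 for females 1, 2 and 3 and -0.05, 0.05 and -0.14 for males. What a number shared by a female and a male marks is not known here. For numbers 1, 2 and 3 the same correlation between the sexes was 0.10, 0.04 and 0.26 in gonads. In brains it was 0.04, -0.14 and -0.14, and the cause of these values was not tested.

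Members and lists were chosen with earlier results of these data known. Named members are the 5 of largest margin and 3 of highest CPM per ovary, those nearest the threshold, the 3 with the highest second sample, and at most 5 per direction called in brain or males. Rank 49 of ovary 1 falls outside this rule and was chosen after its values were seen. Identifiers are not paired with names, so none is printed, and marker lists of oocyte, germ, somatic, testis, yolk, brain, blood, immune, muscle, connective and proliferating cells could not be matched and were not run.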

Additional observations from a re-analysis of the deposited data

How the results depend on the processing

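The count of 159 members was most sensitive to the margin: 1.5-fold gave 448 and 3-fold 46. Pseudocounts of 0.1 and 2 gave 162 and 148, TMM and RLE scaling 163 and 164, all 159 members among them, total-count scaling 134 with 118 of the members, dropping no or 440 abundant gene models 168 and 148, and leaving out each fish in turn 74 to 166. Total-count and upper-quartile scaling of the tests were chosen after seeing the data. With all fish, no member passed an adjusted p of 0.05 by edgeR in the 4 comparisons. The gonad and female comparisons hold the ovaries that chose the members, so nothing is read from their counts below. DESeq2 called 14 in brain and 3 in males, with 1358 and 32 over all gene models. By edgeR, leaving out each fish in turn gave 0 to 3 members in brain. The 3 were found without female 1, where 575 of 22015 gene models were called. With a replicate block no adjusted call appeared either. An unadjusted p under 0.05 was then found in 30 members in brain (31 without the block) and 20 in males (19), 16 higher and 4 lower in testis. It was found in 17 in gonads (11) and 9 in females (16). Over all gene models the block gave 3064 in brain (4012 without it), 725 in males (973), 1365 in gonads (1283) and 656 in females (709). Females and males share only a number. Of unadjusted calls, total-count scaling gave 34 in brain (27 higher and 7 lower in males), 12 in males, 34 in gonads and 58 in females. Of all gene models 9308, 1522, 2417 and 660 were called, against 4012, 973, 1283 and 709 with TMM. DESeq2 gave 26 in gonads and 10 in females, with 1624 and 865 over all gene models. Run 1 and run 2 alone gave 19 and 26 in gonads, with 1287 and 1187 over all gene models. Leaving out each fish in turn gave 21 to 45 in brain, 11 to 34 in males, 0 to 58 in gonads (42 to 58 without a female, 0 to 4 without a male) and 13 to 23 in females. Over all gene models the same fits gave 2464 to 4727 in brain and 337 to 1690 in males. In gonads they gave 536 to 2092 and in females 531 to 1013. Where a fish was left out its group had n = 2. In gonads and females, leaving out a female also removes the peaks chosen in her ovary. The cause of the shifts between settings was not tested. Margins of the 15 leading members, chosen as the largest, ran from 1.63 to 3.82 in run 1 alone and 1.84 to 5.06 in run 2 alone. With 3 fish a group and no gene names, precision and interpretation are limited.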
